A study of Mus musculus with 2 samples.

Results

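The genes described here encode 5 families of enzymes that process foreign compounds and, in many cases, steroids, bile pigments and lipids: the glutathione S-transferases (Gst), the UDP-glucuronosyltransferases (Ugt), the cytochromes P450 of families 1, 2 and 3 (Cyp), the sulfotransferases (Sult) and the carboxylesterases (Ces). They were chosen by a rule on the gene symbol, set with earlier results of these data known. The rule took every row whose symbol begins with Gst plus a class letter (a, k, m, o, p, t or z) and a digit, with Ugt1 or Ugt2 followed by a or b, with Cyp1, Cyp2 or Cyp3 followed by a letter, or with Sult or Ces followed by a digit. This gave 107 of the 17840 genes measured, namely 21 Gst, 15 Ugt, 43 Cyp, 12 Sult and 16 Ces genes. Levels were measured by RNA sequencing in cells sorted from mouse intestinal crypts as Lgr5-positive stem cells by the intensity of green fluorescent protein, with no culture step. One library came from Srcapflox/flox; Lgr5-Cre+ mice given tamoxifen (Srcap KO), in which Cre removes the floxed Srcap gene in Lgr5-expressing cells, and 1 library came from Srcap+/+; Lgr5-Cre+ mice (Srcap WT). Both genotypes thus carried Lgr5-Cre. The labels can be read as giving tamoxifen to both genotypes or to the KO mice alone, and the numbers of mice and cells, and the age, are not stated there. SRCAP is the ATPase of a complex that places the histone variant H2A.Z into chromatin, and the comparison asks which transcripts differed in cells sorted as Lgr5-positive after deletion of Srcap had been induced.

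Xenobiotic metabolism is usually described in phases. Cytochromes P450 and carboxylesterases expose or add a reactive group by oxidation or hydrolysis (phase I), and the transferases then attach glutathione, glucuronic acid or sulfate, which makes most products more soluble (phase II). In the intestine these enzymes meet compounds from food and microbes before the blood does, and many of them are more abundant in the absorptive enterocytes of the villus than in crypt cells. Their transcription is known to respond to the aryl hydrocarbon receptor AHR, to the nuclear receptors PXR (Nr1i2) and CAR (Nr1i3), and to NRF2 (Nfe2l2).

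The values are FPKM, the fragments per kilobase of transcript, scaled to the mapped fragments of the library, so levels can be compared between genes per unit of length. With 1 library per genotype there is no replicate error and no test. Each difference compares these 2 libraries only, and how much mice vary cannot be seen. Differences are given as log2 ratios of KO to WT after a pseudocount of 1 FPKM was added to both values, which understates the change of low genes, and folds are plain ratios of FPKM. A gene is called higher or lower when its log2 ratio is at least 1 (2-fold) in that direction and its mean over both libraries is at least 1 FPKM. Steps between the lowest values imply roughly 16667000 reads assigned to genes in the KO and 17153000 in the WT library. By this estimate, 1 FPKM of a 2 kb transcript stands for about 33.3 reads in KO and 34.3 reads in WT. The step was searched in a narrow range only. A depth as high as the 59000000 reads per sample that the labels give could not have been found.

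Both libraries held RNA of several cell types. Srcap itself stood at 11.3 FPKM in the KO library and 20.4 FPKM in the WT library, 55.7% of the WT value. This gene-level value is lower in KO, as the labels have it, but does not show a complete loss. Lgr5 stood at 2.17 FPKM in KO and 5.9 FPKM in WT, while the 9 Paneth cell markers measured summed to 22994 FPKM in KO and 39053 FPKM in WT. The 15 stem cell markers all had negative log2 ratios (median -0.64). Of 12 enteroendocrine markers, 10 had negative ones (median -0.49) and 2 were called lower. Negative log2 ratios were also seen in 5 of 6 tuft cell markers (median -0.37). Of 17 enterocyte markers, 16 had positive ones (median 0.52) and 5 were called higher, with sums over all 19 listed of 1137 FPKM in the KO and 717 FPKM in the WT library. None of the 19 was at 0, and the lactase gene Lct and the glucose transporter gene Slc2a2 were under a mean of 1 FPKM. All 7 stromal markers with a mean of 1 FPKM or more were called higher, as were 4 of 5 mesothelial and 8 of 10 myeloid markers. The mesothelial markers Msln, Lrrn4 and Nkain4 were under 1 FPKM in the WT library and reached that mean through the KO library. Summed levels were 324 FPKM in KO and 59.3 FPKM in WT for the 8 stromal, 2583 FPKM in KO and 1819 FPKM in WT for the 6 mesothelial and 440.4 FPKM in KO and 179.7 FPKM in WT for the 10 myeloid markers, and no marker of these lists was at 0. Krt19, which epithelium also expresses, makes up 97.6% of the mesothelial sum in the KO library. Hepatocyte markers, listed because the liver expresses most of these enzymes, summed to 6.01 FPKM in KO and 7.81 FPKM in WT over 6 genes. Ttr made up 81.2% of that sum in the KO library. The part of these cell types in the differences below was not tested. Fewer cells of a type and less RNA per cell cannot be told apart in such sorted bulk samples.

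Of the 107 genes, 52 had a mean of at least 1 FPKM, called the expression limit here, and 55 lay below it. The member just inside it was Cyp2d22, with 1.62 FPKM in the KO and 0.45 FPKM in the WT library, and the one just outside was Cyp2w1, with 0.76 FPKM in KO and 0.67 FPKM in WT. Among the 55 low genes, 11 were listed at 0 in both libraries, 8 were above 0 in the KO library only, 11 in the WT library only and 25 in both, and none of their values exceeded 0.94 FPKM. No member was at 0 in one library and at 1 FPKM or more in the other. Together the 107 genes summed to 2193 FPKM in the KO and 1877 FPKM in the WT library, or 0.346% of all FPKM in KO and 0.279% in WT. The most abundant was Gstp1, which alone made up 35.8% of this sum in the KO and 36.2% in the WT library.

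In all, 4 genes were called higher in the KO library and 0 were called lower. The 4 were Gsta1, Gsta3, Sult2b1 and Ugt2b5, or 7.69% of the 52, while of all 11443 genes that reached the same mean 2.53% were called higher and 0.419% lower. The same shares over all genes, 2.53% and 0.419%, are the background for the counts called in each family and list of this report. At a 1.5-fold limit, 14 of the 52 (26.9%) were higher and 0 lower, against 7.31% and 1.51% of all genes. Positive log2 ratios were seen in 35 of the 52 (67.3%), against 52.7% of all genes, and the median was 0.24, against 0.02 over all genes. Of the 52, 5 had under 1 FPKM in one of the libraries and so reached the expression limit through the other: Cyp2d22, Sult1a1 and Ugt2b5 through KO, Cyp2j9 and Sult4a1 through WT. Among the remaining 47, 3 were called higher and 0 lower, with 32 positive ratios and a median of 0.23. With a pseudocount of 5 FPKM, 2 genes (Gsta1 and Sult2b1) were called higher.

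The promoters of the genes called higher are shown so that the start regions of the genes past the 2-fold rule can be compared. Each run covers 250 bases before and 50 bases from the start of transcription, 5′ to 3′ on the gene's strand, from RefSeq annotation of GRCm38.p6 (the mm10 assembly), at the first start listed for each gene. They are Gsta1 (chr9:78230419-78230718, plus strand), Gsta3 (chr1:21240335-21240634, plus strand), Sult2b1 (chr7:45759563-45759862, minus strand) and Ugt2b5 (chr5:87140291-87140590, minus strand). Capitals mark matches to any of 6 motifs searched on both strands: the antioxidant response element core TGACNNNGC, which NRF2 binds, the xenobiotic response element core GCGTG, which AHR binds with ARNT, the direct repeat of AGGTCA with 1 base in between, bound by RXR pairs and HNF4A, the HNF4A core CAAAGTCCA, the CDX core TTTATNG and the HNF1 site, GTTAAT and ATTAAC with 1 base between them.
Gsta1: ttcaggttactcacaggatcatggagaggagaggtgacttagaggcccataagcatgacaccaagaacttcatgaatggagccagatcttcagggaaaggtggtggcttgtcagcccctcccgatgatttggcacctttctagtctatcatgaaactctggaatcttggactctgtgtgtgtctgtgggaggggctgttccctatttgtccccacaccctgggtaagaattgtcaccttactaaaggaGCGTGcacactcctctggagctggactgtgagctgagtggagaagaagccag
Gsta3: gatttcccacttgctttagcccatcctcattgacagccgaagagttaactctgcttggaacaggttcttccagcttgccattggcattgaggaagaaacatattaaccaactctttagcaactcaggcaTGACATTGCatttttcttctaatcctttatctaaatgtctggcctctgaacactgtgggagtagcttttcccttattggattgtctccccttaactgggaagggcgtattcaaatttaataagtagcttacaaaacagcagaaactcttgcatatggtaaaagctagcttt
Sult2b1: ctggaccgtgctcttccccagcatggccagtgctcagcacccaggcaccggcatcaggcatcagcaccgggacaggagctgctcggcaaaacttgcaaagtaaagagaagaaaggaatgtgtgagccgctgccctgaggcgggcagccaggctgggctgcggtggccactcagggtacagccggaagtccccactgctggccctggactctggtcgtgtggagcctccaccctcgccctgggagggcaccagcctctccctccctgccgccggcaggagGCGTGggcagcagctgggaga
Ugt2b5: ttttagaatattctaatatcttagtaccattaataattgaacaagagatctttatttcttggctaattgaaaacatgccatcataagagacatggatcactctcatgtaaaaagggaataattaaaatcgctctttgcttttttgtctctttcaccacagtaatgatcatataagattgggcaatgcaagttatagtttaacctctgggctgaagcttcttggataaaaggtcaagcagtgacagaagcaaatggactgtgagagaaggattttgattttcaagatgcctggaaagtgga

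In these windows the capitals in Gsta1 and Sult2b1 are the AHR core, those in Gsta3 are the NRF2 core, and Ugt2b5 holds none of the 6 motifs. The genes called higher therefore share none of these motifs as a group. Promoters were listed for 95 of the 107 genes and for 44 of the 52 with a mean of at least 1 FPKM. The AHR core was present in 8 of the 44 (18.2%), against 32.5% of all 27025 promoters and 51.6% of the 9215 of genes with the same minimum mean. Its other holders were Cyp2c68, Cyp2j9, Gstm1, Gstm5, Gstp1 and Sult1d1. The NRF2 core was present in 4 of the 44 (9.09%), in Cyp2c65, Cyp2j6, Gsta3 and Gstm5, against 12.5% of all and 14.8% of the 9215 promoters, and in Gstm5 it overlaps an AHR core. The HNF4A core was found in Cyp2c65 and Cyp2c68 (4.55%, against 0.477% of all and 0.467% of the 9215 promoters) and the CDX core in Ces1g and Ugt2a3 (4.55%, against 11.3% and 7.08%). The direct repeat and the HNF1 site, found in 0.0444% and 0.0074% of all promoters, were found in 0 of the 44. A match describes letters in these windows only.

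**Figure D1:**
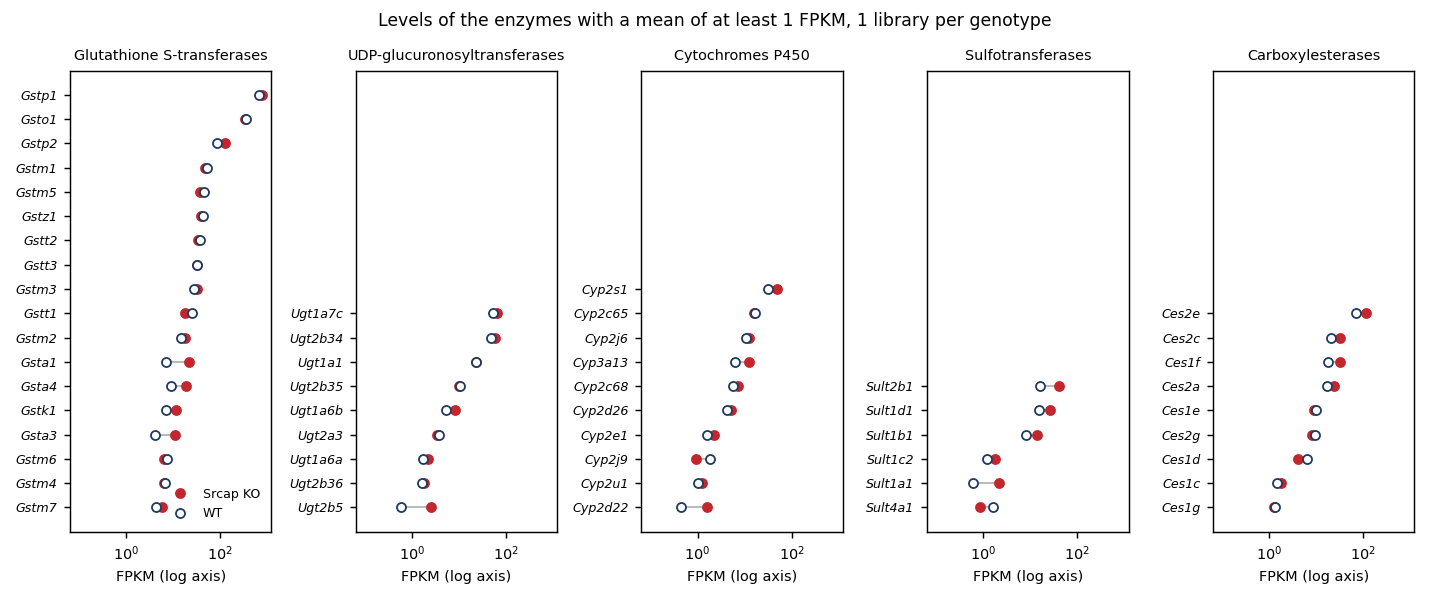
FPKM (log axis) of the 52 enzyme genes with a mean of at least 1 FPKM, by family, with the KO library as filled and the WT library as open points, 1 library each. Most pairs of points nearly coincide, and the widest gaps are those of Gsta1, Gsta3, Sult2b1 and, at low levels, Ugt2b5, Sult1a1 and Cyp2d22.

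The alpha class of glutathione S-transferases was higher in the KO library, while the other abundant classes were close to equal. Alpha enzymes conjugate electrophiles and reduce lipid peroxides. Gsta1 (Entrez 14857, chromosome 9, 78230669 to 78242683) had 21.5 FPKM in the KO library, against 7.13 FPKM in the WT library, 3.02-fold higher (log2 ratio 1.47). Gsta3 (Entrez 14859, chromosome 1, 21240565 to 21265575) had 11.1 FPKM in KO, against 4.04 FPKM in WT cells, 2.75-fold higher (log2 ratio 1.26). Gsta4, whose product is known for conjugating the lipid peroxidation product hydroxynonenal, had 18.6 FPKM in KO and 9.07 FPKM in WT, 2.06-fold higher, with a log2 ratio of 0.96 that falls just short of the 2-fold limit because of the pseudocount. The 3 alpha genes above the expression limit were thus 2.06-fold to 3.02-fold higher, and Gsta3 lies on another chromosome than Gsta1 and Gsta4. Gsta2, the neighbour of Gsta1, had 0.51 FPKM in the KO and 0.41 FPKM in the WT library. The 4 alpha genes summed to 51.8 FPKM in KO and 20.7 FPKM in WT cells. The approximate counting error of the log2 ratio, from the estimated reads and without the pseudocount, was 0.17 for Gsta1 and 0.19 for Gsta3.

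Gsta1 shares most of its transcript sequence with other genes. Of its distinct 50-base words, the length of a read, 90.5% also occur in transcripts of another gene, and 75.7% occur in Gm3776, a predicted gene. Gm3776 had 9.51 FPKM in the KO and 3.68 FPKM in the WT library. The sum of Gsta1 and Gm3776 was 31.0 FPKM in KO and 10.8 FPKM in WT cells, 2.87-fold higher, so the direction does not depend on how reads were split between this pair. Gsta3 shares 0.273% of its words and Gsta4 none.

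Pi, omega, mu, theta and zeta enzymes made up most of the Gst transcripts and lay within 2-fold. Gstp1, the main pi enzyme, had 785 FPKM in the KO and 680.1 FPKM in the WT library (log2 ratio 0.21). Its near copy Gstp2 had 125.7 FPKM in KO and 86.2 FPKM in WT (0.54). These 2 genes share transcript sequence (33.7% of the words of Gstp1 occur in Gstp2), and their sum was 911 FPKM in KO and 766 FPKM in WT cells, 1.19-fold higher. Gsto1, an omega enzyme that reduces dehydroascorbate, was close to equal, with 339 FPKM in KO and 356 FPKM in WT (-0.07). The zeta gene Gstz1, an isomerase of tyrosine breakdown, had 38.2 FPKM in KO and 44.0 FPKM in WT (-0.20).

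The 7 mu genes lie together on chromosome 3, between 107895854 and 108045179. Their log2 ratios ran from -0.26 for Gstm5 to 0.34 for Gstm7, with 3 positive and 4 negative, and their sum was 155 FPKM in the KO and 158 FPKM in the WT library. Gstm1 had 48.2 FPKM in KO and 53.0 FPKM in WT (-0.13), Gstm5 37.4 FPKM in KO and 45.0 FPKM in WT, and Gstm3 32.6 FPKM in KO and 27.2 FPKM in WT (0.25). Gstm2 had 18.2 FPKM in KO and 14.5 FPKM in WT cells (0.31), and the lowest of the class were Gstm6, with 6.49 FPKM in KO and 7.48 FPKM in WT, Gstm4, with 6.32 FPKM in KO and 6.86 FPKM in WT, and Gstm7, with 5.75 FPKM in KO and 4.35 FPKM in WT. Of the theta genes on chromosome 10, Gstt1 was the lowest Gst gene by ratio, with 17.9 FPKM in KO and 25.0 FPKM in WT cells (-0.46). Gstt2 had 33.6 FPKM in KO and 37.9 FPKM in WT (-0.17), and Gstt3 had 32.3 FPKM in KO and 32.1 FPKM in WT (0.01). Gstk1, a kappa enzyme of mitochondria and peroxisomes, had 11.3 FPKM in KO and 6.96 FPKM in WT, with a log2 ratio of 0.63. Over the 18 Gst genes above the expression limit, 2 were called higher and 0 lower, and the median log2 ratio was 0.11.

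Sulfotransferases had the highest median ratio of the families, 0.71 over 6 genes, with 1 called higher, 0 lower and 5 positive. They transfer sulfate to phenols, amines and steroids. Sult2b1 (Entrez 54200, chromosome 7, 45729981 to 45759672), whose product sulfates cholesterol and other hydroxysteroids, had 41.6 FPKM in the KO library, against 16.3 FPKM in the WT library, 2.56-fold higher (log2 ratio 1.30). It shares no 50-base word with another gene, and its approximate counting error was 0.09. The phenol and amine sulfotransferase gene Sult1d1 had 26.1 FPKM in KO and 15.0 FPKM in WT (0.76), and Sult1b1, which acts on thyroid hormones and phenols, had 13.7 FPKM in KO and 8.23 FPKM in WT (0.67). These 2 genes are neighbours on chromosome 5 and together had 39.8 FPKM in KO and 23.2 FPKM in WT cells. Sult1a1, a phenol sulfotransferase gene, had 2.12 FPKM in KO and 0.59 FPKM in WT (0.97), and Sult1c2 had 1.81 FPKM in KO and 1.19 FPKM in WT (0.36). The only negative ratio was that of Sult4a1, known from the brain, with 0.84 FPKM in the KO and 1.6 FPKM in the WT library (-0.50). The family summed to 86.7 FPKM in KO and 43.0 FPKM in WT cells. Of the other 6 genes, Sult1c1, Sult1e1 and Sult2a8 were at 0 in both libraries, and the other three stayed at or under 0.3 FPKM.

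Carboxylesterases fell into genes that were moderately higher and genes that were near equal or lower, and none of 9 passed 2-fold. They hydrolyse ester and amide drugs as well as lipid esters. Ces2e, the most abundant, had 113 FPKM in the KO and 69.8 FPKM in the WT library (log2 ratio 0.69). Ces2c had 32.1 FPKM in KO and 20.3 FPKM in WT (0.64), and Ces2a had 24.2 FPKM in KO and 16.7 FPKM in WT (0.51). Ces2g, in the same cluster on chromosome 8, had 8.37 FPKM in KO and 9.29 FPKM in WT (-0.14). Ces2c shares 36.1% of its 50-base words with other transcripts, mostly with the pseudogene Ces2d-ps, and Ces2e shares 3.30%. The 7 Ces2 genes summed to 178 FPKM in KO and 116 FPKM in WT cells.

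Ces1 genes, in a second cluster on chromosome 8, differed among themselves. Ces1f had the highest ratio of the carboxylesterases, with 32.2 FPKM in KO and 17.6 FPKM in WT cells (0.84), and Ces1d the lowest, with 4.09 FPKM in KO and 6.31 FPKM in WT (-0.52). Ces1e had 9.21 FPKM in KO and 10.1 FPKM in WT (-0.12), Ces1c 1.81 FPKM in KO and 1.49 FPKM in WT (0.17), and Ces1g 1.26 FPKM in KO and 1.35 FPKM in WT (-0.06). Below the expression limit, Ces1b had 0.45 FPKM in the KO and 0.84 FPKM in the WT library, and Ces2b, of the other cluster, had 0.54 FPKM in KO and 0.26 FPKM in WT. None of Ces1d, Ces1e and Ces1f shares more than 2.97% of its words with another gene. The median over the 9 Ces genes was 0.17, but -0.028 over all 16 Ces genes without the expression limit and 0.51 over those with a mean of at least 5 FPKM.

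**Figure D2:**
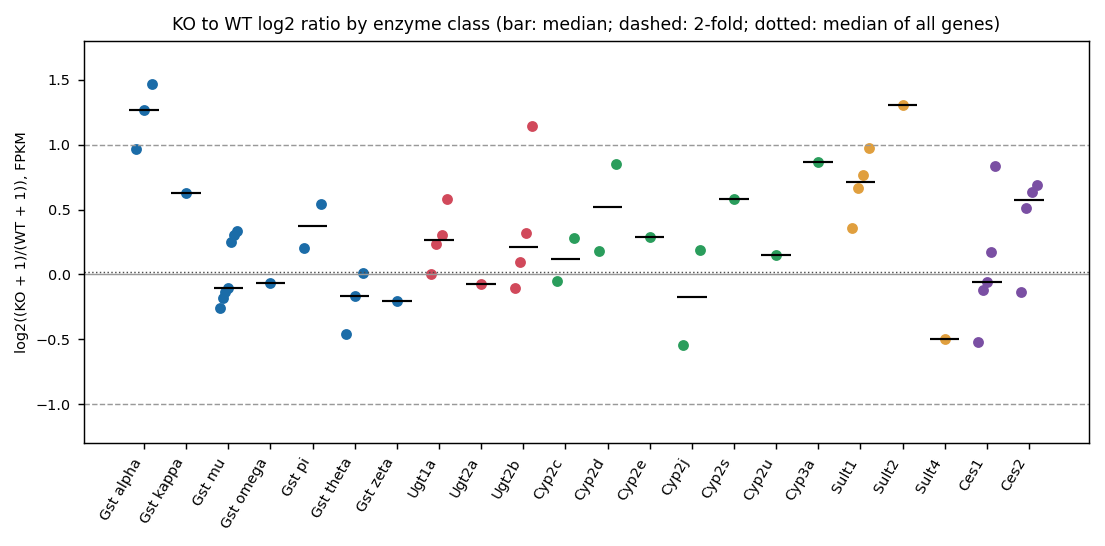
Log2 ratios of KO to WT (pseudocount of 1 FPKM) of the 52 genes by enzyme class, 1 point per gene, with bars at class medians, dashed lines at 2-fold and a dotted line at the median of all genes (0.02). The alpha Gst genes (0.96 to 1.47) and Sult2b1 (1.30) stand at the top, while the 7 mu Gst genes lie between -0.26 and 0.34.

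Cytochromes P450 were mostly at or near 0. By the log2 ratio with the pseudocount, the 10 that reached a mean of 1 FPKM lay within 2-fold (8 positive, median 0.24). P450 enzymes insert oxygen into drugs, steroids and fatty acids. Cyp2s1, known from epithelia outside the liver, was the most abundant, with 48.5 FPKM in the KO and 32.2 FPKM in the WT library (log2 ratio 0.58). Cyp3a13, the only Cyp3a gene above the expression limit, had 12.1 FPKM in KO and 6.2 FPKM in WT (0.87), and it shares no 50-base word with another gene. Cyp2c65 had 15.7 FPKM in KO and 16.3 FPKM in WT (-0.05), Cyp2j6 had 12.2 FPKM in KO and 10.6 FPKM in WT (0.19), and Cyp2c68 had 7.21 FPKM in KO and 5.75 FPKM in WT (0.28). The Cyp2c68 value is uncertain, since 43.3% of its words occur in other genes, mostly in Cyp2c40, which was at 0 in both libraries.

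The other P450 genes above the expression limit were low. Cyp2d26 had 5.03 FPKM in KO and 4.32 FPKM in WT cells (0.18), and Cyp2e1, which oxidises ethanol, had 2.2 FPKM in KO and 1.62 FPKM in WT (0.29). Cyp2u1, a fatty acid hydroxylase gene, had 1.23 FPKM in KO and 1.01 FPKM in WT (0.15). Cyp2d22 had 1.62 FPKM in KO and 0.45 FPKM in WT (0.85), which is 3.6-fold higher by the plain ratio. The Cyp2d22 values rest on roughly 22 reads in KO and 6 reads in WT. This estimate uses the median length of its annotated transcripts, 808 bases, and a longer transcript would give more reads. Cyp2j9 had the lowest ratio of all 52 genes, with 0.94 FPKM in KO and 1.82 FPKM in WT (-0.54). The remaining 33 P450 genes were under the mean of 1 FPKM, 7 of them at 0 in both libraries. Among them was Cyp1a1, the classical AHR target, with 0.09 FPKM in the KO and 0.08 FPKM in the WT library. Cyp1b1, another AHR target, had 0.70 FPKM in KO and 0.16 FPKM in WT. Cyp3a11, a main drug-oxidising P450 of mouse liver, was listed at 0 in the KO and at 0.03 FPKM in the WT library.

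Of 9 UDP-glucuronosyltransferase genes above the expression limit, 8 lay within 1.5-fold by the log2 ratio with the pseudocount, and the low-level gene Ugt2b5 was past 2-fold. These enzymes attach glucuronic acid to bilirubin, steroids and drugs. Ugt2b5 (Entrez 22238, chromosome 5, 87124946 to 87140340) had 2.54 FPKM in the KO library, against 0.60 FPKM in the WT library, 4.23-fold higher (log2 ratio 1.15). This rests on roughly 79 reads in KO and 19 reads in WT, with an approximate counting error of 0.37. Of its words, 41.7% occur in another gene, mostly in Ugt2b38, which had 0 FPKM in KO and 0.08 FPKM in WT, and the sum of this pair was 2.54 FPKM in KO and 0.68 FPKM in WT. The abundant gene of its cluster, Ugt2b34, had 59.8 FPKM in KO and 47.7 FPKM in WT cells (0.32). Ugt2b35 had 9.9 FPKM in KO and 10.7 FPKM in WT (-0.10), Ugt2a3 3.48 FPKM in KO and 3.72 FPKM in WT (-0.08), and Ugt2b36 1.85 FPKM in KO and 1.66 FPKM in WT (0.10).

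All Ugt1a transcripts arise from a single locus on chromosome 1 and differ in their first exon only, so the split between them is uncertain: between 52.1% and 79.8% of the words of the 4 measured above the expression limit occur in other genes. The sum over the 7 measured genes depends less on this split, though not strictly independent of it, because FPKM is divided by transcript length. Ugt1a10, which shares words with Ugt1a9, is not among the 7. Together the 7 measured genes had 99.5 FPKM in the KO and 83.9 FPKM in the WT library, 119% of the WT value. Ugt1a7c was the highest, with 64.9 FPKM in KO and 52.3 FPKM in WT (0.30). Ugt1a1, the bilirubin-conjugating form, was equal, with 23.5 FPKM in KO and 23.4 FPKM in WT (0.01). Ugt1a6b had 8.4 FPKM in KO and 5.29 FPKM in WT (0.58), and Ugt1a6a had 2.23 FPKM in KO and 1.75 FPKM in WT (0.23). Ugt1a9, under the expression limit, had 0.46 FPKM in KO and 0.94 FPKM in WT. Of the 9 Ugt genes with a mean of at least 1 FPKM, 1 was called higher, 0 lower and 7 had positive ratios, with a median of 0.23.

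**Figure D3:**
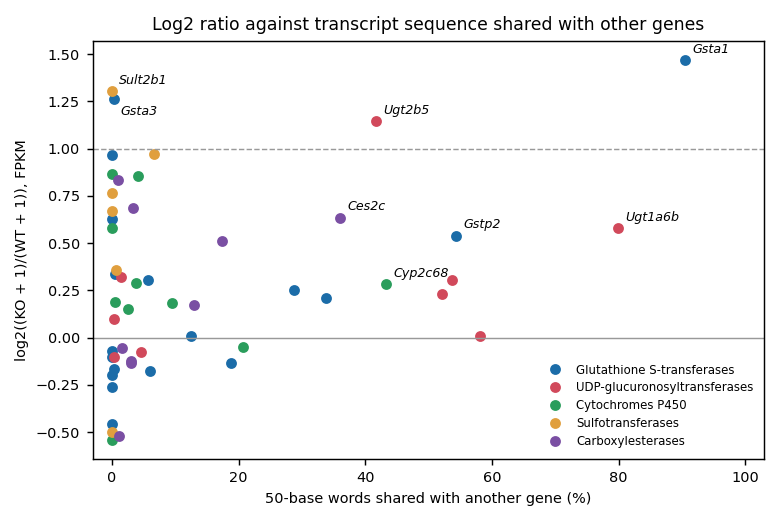
Log2 ratio of each of the 52 genes (pseudocount of 1 FPKM) against the share of its distinct 50-base transcript words that also occur in another gene, in percent, coloured by family. Gsta3 and Sult2b1 are past 2-fold with nearly no shared sequence (0.273% and 0%), whereas Gsta1 and Ugt2b5 share 90.5% and 41.7%.

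Shared sequence affects part of these values. Of the 52 genes, 32 share under 5% of their words with other genes, and 10 share 30% or more, among them all 4 Ugt1a genes above the expression limit, both pi Gst genes, Gsta1, Ugt2b5, Ces2c and Cyp2c68. Among the 32, 2 were called higher (Gsta3 and Sult2b1), 18 had positive ratios, and the median log2 ratio was 0.17. Positive ratios were seen in 35 of all 52 members and in 52.7% of all genes with the same minimum mean. The share of positive ratios among the 32 was thus near that of all genes, and lower than the 67.3% of all 52. Most of the positive ratios beyond the share of all genes were among the other 20, which share 5% or more of their words. The median of these 20 was 0.27.

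**Figure D4:**
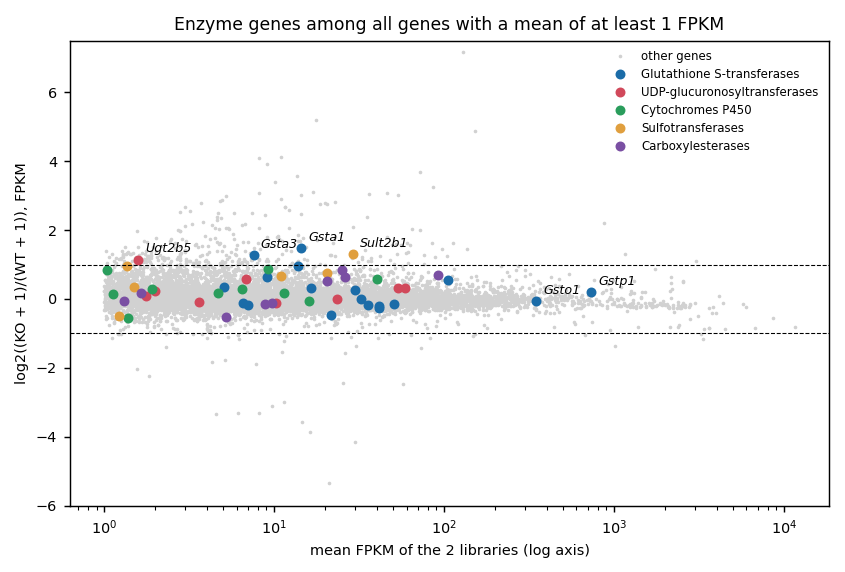
Log2 ratio (pseudocount of 1 FPKM) against the mean FPKM of both libraries (log axis) for the 11443 genes with a mean of at least 1 FPKM, enzyme genes coloured by family, dashed lines at 2-fold. The called enzymes lie just above the upper line, where 2.53% of all genes lie, and no enzyme gene lies below the lower one.

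Ranked from the highest log2 ratio among the 11443 genes, Gsta1 was at place 117, Sult2b1 at 154, Gsta3 at 171 and Ugt2b5 at 217.

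The regulators of these enzymes differed little. Of 11 receptors and regulators, 0 were called higher or lower, and the median log2 ratio was 0.09. Nr1i2 (PXR) had 24.5 FPKM in the KO and 21.3 FPKM in the WT library (0.19), and Nr1i3 (CAR) had 3.03 FPKM in KO and 2.01 FPKM in WT (0.42). Ahr had 3.3 FPKM in KO and 2.94 FPKM in WT (0.13), and Nfe2l2 (NRF2) had 57.0 FPKM in KO and 55.8 FPKM in WT (0.03). The most abundant were Hnf4a, with 260 FPKM in KO and 284 FPKM in WT (-0.13), Cdx1, with 230 FPKM in KO and 220 FPKM in WT (0.06), and Cdx2, with 113 FPKM in KO and 146 FPKM in WT (-0.36). Tiparp, an AHR target that limits the receptor, had 6.66 FPKM in KO and 4.21 FPKM in WT (0.56), and the AHR and NRF2 list as a whole had 0 of 6 calls in either direction (median 0.11). Ahr, Arnt and Nfe2l2 are in both this list and the 11 above, so the counts overlap.

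Supply of cofactors was nearly equal as well, with 0 of 12 genes called in either direction and a median of 0.11. Gclc and Gclm, the subunits of the enzyme that limits glutathione synthesis, had 13.2 FPKM in KO and 14.4 FPKM in WT (-0.12) and 20.5 FPKM in KO and 20.2 FPKM in WT (0.02). The highest ratio was that of Papss2, which makes the sulfate donor used by sulfotransferases, with 6.89 FPKM in KO and 3.56 FPKM in WT cells (0.79). Its paralog Papss1 had 34.0 FPKM in KO and 31.9 FPKM in WT (0.09). Ugdh, which makes the glucuronic acid donor, had 44.0 FPKM in KO and 39.0 FPKM in WT (0.17).

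Among 29 other phase I genes, 3 were called higher and 0 lower, against 2.53% and 0.419% of all genes, with a median of 0.25. Fmo2, a flavin monooxygenase gene, had 8.65 FPKM in the KO and 0.70 FPKM in the WT library (2.50). Aldh1a2, a retinaldehyde dehydrogenase gene that mesothelial and stromal cells express, had 6.9 FPKM in KO and 0.69 FPKM in WT (2.22). Fmo2 and Aldh1a2 were under 1 FPKM in the WT library and so reached the expression limit through the KO library. Akr1c14, a hydroxysteroid dehydrogenase gene, had 6.72 FPKM in KO and 2.86 FPKM in WT (1.00). The most abundant members were near equal, with Aldh1b1 at 705 FPKM in KO and 774.5 FPKM in WT (-0.14) and Akr1a1 at 582 FPKM in KO and 551 FPKM in WT (0.08). Por, the reductase that feeds electrons to all microsomal P450 enzymes, had 32.1 FPKM in KO and 25.9 FPKM in WT (0.30).

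Of 9 other conjugation genes, 1 was called higher and 0 lower, against 2.53% and 0.419% of all genes, with a median of 0.10. The 1 called was Ggt1, which cleaves glutathione conjugates at the cell surface and is a brush border enzyme, with 11.6 FPKM in KO and 3.55 FPKM in WT cells (1.47). The microsomal glutathione transferase genes were abundant, with Mgst3 at 334 FPKM in KO and 311 FPKM in WT (0.10) and Mgst1 at 258 FPKM in KO and 244 FPKM in WT (0.08). Of 12 transporters that export or take up conjugates and drugs, 0 were called in either direction (median 0.13). Abcb1a, the main P-glycoprotein gene of mouse intestine, had the highest ratio, with 9.84 FPKM in KO and 5.47 FPKM in WT (0.74), and Abcg2 had 20.7 FPKM in KO and 15.8 FPKM in WT (0.37).

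**Figure D5:**
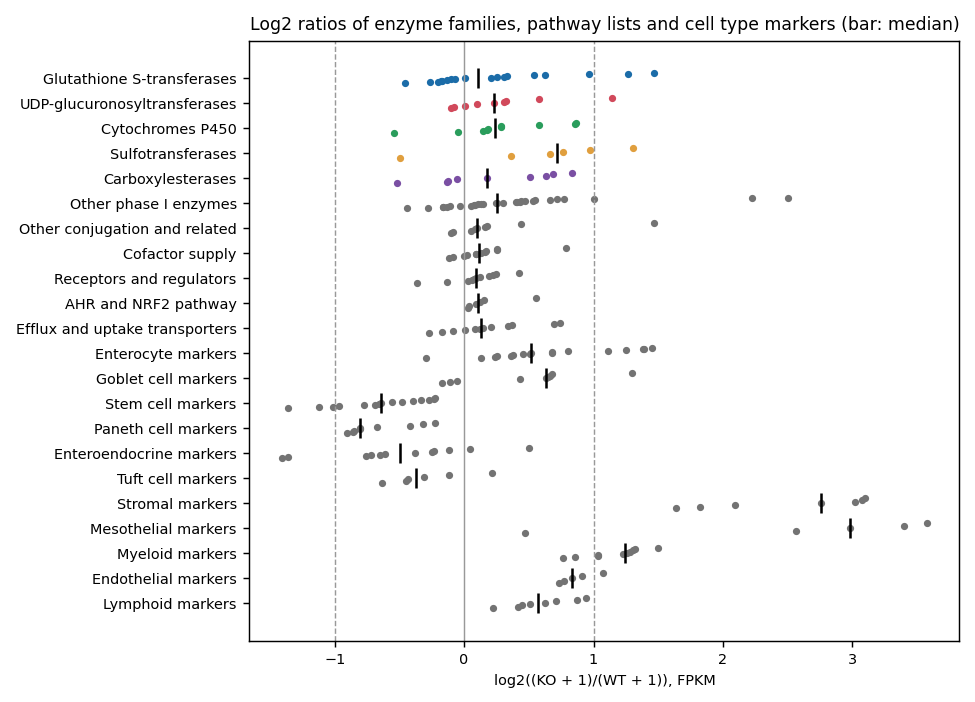
Log2 ratios (pseudocount of 1 FPKM) of the 5 enzyme families, of other pathway lists and of cell type markers, 1 point per gene with a mean of at least 1 FPKM, bars at medians and dashed lines at 2-fold. The sulfotransferase median (0.71) lies among those of the enterocyte (0.52), lymphoid (0.57), goblet cell (0.63) and endothelial markers (0.83). The stromal (2.76), mesothelial (2.98) and myeloid (1.24) medians lie above all enzyme families. The medians of stem cell (-0.64), Paneth cell (-0.80), enteroendocrine (-0.49) and tuft cell markers (-0.37) lie below them.

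Several lists of cell type markers were higher in the KO library as well. Among the called enterocyte markers were Anpep, with 201 FPKM in the KO and 72.6 FPKM in the WT library (1.46), Sis, with 18.7 FPKM in KO and 6.5 FPKM in WT (1.39), Krt20, with 146 FPKM in KO and 60.8 FPKM in WT (1.25), and Apoa1, with 48.9 FPKM in KO and 22.0 FPKM in WT (1.12). The other 12 enterocyte markers above the expression limit were within 2-fold, and the log2 ratios of the whole list ran from -0.30 for Ada to 1.46 for Anpep. Stromal markers had larger ones, from 1.63 for Vim to 3.10 for Col1a2, as had Fmo2 and Aldh1a2. Goblet cell markers had a median of 0.63, with 6 of 9 positive, 3 negative and 1 called higher. The negative ones were Spdef (-0.05), Atoh1 (-0.17) and Spink4 (-0.11). All 5 endothelial markers had positive log2 ratios (median 0.83), 1 of them was called higher, and their sum was 19.0 FPKM in KO and 7.89 FPKM in WT. All 8 lymphoid markers had positive log2 ratios (median 0.57), none was called higher, and their sum was 675 FPKM in KO and 430.5 FPKM in WT. The part of any of these cell types in the enzyme differences was not tested.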

How the data were processed

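Each library has 1 table from the authors with FPKM for 17840 genes, per the file headers. Per the labels' protocols, total RNA was sequenced as single-end 50 base reads on a BGISEQ-500 instrument, on average 59000000 per sample. The submitters' processing notes name HISAT, Bowtie2, RSEM and mm10, with no role or version. Annotation and strand setting: not given in the sources used here. Both tables were joined on the Entrez identifier, and coordinates came from the RefSeq table of GRCm38.p6 (107 of 107 genes matched).

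Log2 ratios used a pseudocount of 1 FPKM. With 1 library per genotype, nothing was tested and no p-value or interval between mice exists. Values for single genes are given for those past 2-fold, for the most abundant of each family, P450 or carboxylesterase subfamily and pathway list, and for the members next to the limit of 1 FPKM. Gsta2, Gstm7, Ugt1a and Ugt2 members of lower rank, Cyp1b1, Cyp3a11, Gm3776 and some regulators were added after their values were seen. The value of 1 listed marker is not reported here. The members and lists were chosen with earlier results of these data known. Depth was estimated from steps in FPKM times length of genes under 900 nucleotides with 1 GENCODE M21 transcript (95 genes in KO, 94 in WT). A single read corresponded to about 0.06 FPKM kb in KO and 0.0583 in WT, and 66.3% and 73.4% of values lay within 0.2 of a whole read. The step was searched in a narrow range around these values only, so the search could not have found a very different depth. Reads of a gene were estimated with the median length of its GENCODE M21 transcripts, which can be shorter than the main transcript. Estimated reads are therefore rough, and counting errors rest on them and cover counting only. Shared 50-base words were counted over sense-strand GENCODE M21 transcripts. Python 3.11.15, pandas 2.3.3, numpy 2.4.6 and matplotlib 3.10.9 were used.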

Additional observations from a re-analysis of the deposited data

How the results depend on the processing

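No paired analysis was possible because each genotype has 1 library, and for the same reason no library could be left out. No gene was called lower under any of the 9 alternatives run. The number called higher was 4. It was 7 with a pseudocount of 0.1 FPKM, with libraries rescaled to a sum of 1000000 and with that sum taken without Paneth cell secretory genes, where Gsta4, Sult1a1 and Cyp2d22 joined. It was 2 (Gsta1 and Sult2b1) with a pseudocount of 5 FPKM, 3 (without Ugt2b5) with a mean of at least 5 FPKM and 14 with a 1.5-fold limit. Of 48 recomputed medians, 37 moved by at most 0.1. With a pseudocount of 5 FPKM the medians were 0.14 over all members, 0.10 for Ugt, 0.13 for Cyp, 0.42 for Sult and 0.069 for Ces. Without the limit on the mean, they were 0.043 over all members, 0.0032 for Ugt, 0.043 for Cyp, 0.38 for Sult and -0.028 for Ces, as genes near 0 entered. With a mean of at least 5 FPKM the Ces median was 0.51, as only the abundant genes stayed. Rescaling to a sum of 1000000 added 0.08 to every log2 ratio before the pseudocount, and the median of all genes became 0.10. Under that rescaling the log2 ratios of Cyp2c65 and Gsto1 turned from negative to positive. No other member with a mean of at least 1 FPKM changed sign under any of the 4 rescalings.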
